A study of Mus musculus with 6 samples.

Results

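The genes described here are 31 genes of the interferon response and of antigen presentation by major histocompatibility complex (MHC) class I molecules, taken by exact symbol from a table of 43283 mouse gene identifiers. All 31 were found, each with 1 identifier. The samples are muscle stem cells of female C57BL/6 mice, sorted from hindlimb muscle as α7-integrin-positive, CD34-positive cells that lack CD45, Sca1, CD31 and CD11b. In culture the cells received either DMSO (the Vehicle group, 3 libraries) or prostaglandin E2 (PGE2, a lipid mediator of inflammation, 3 libraries) for 24 hours, in a medium with 20% fetal bovine serum. No allele or transgene distinguishes the groups, and the labels give no PGE2 dose and do not say whether animals were pooled. The mice were 8 to 12 weeks old in the sample labels and 2 to 4 months old in the series' design text, and RNA came from 5000 to 10000 cells. The libraries are called biological replicates, but separate animals, sorts or cultures are not named, so the p-values reflect only how far these libraries differ, and part of that may be technical.

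Interferons are secreted proteins that warn neighbouring cells of infection. Type I interferons bind the receptor Ifnar1/Ifnar2, which acts through the kinases Jak1 and Tyk2 and a complex with Stat2 and Irf9 that binds the interferon-stimulated response element (ISRE) near target genes. Interferon gamma acts through Ifngr1/Ifngr2, and its target genes have gamma-activated sites (GAS). Among the targets are antiviral proteins and the machinery of class I presentation: the immunoproteasome cuts proteins into peptides, Tap1 and Tap2 pump these into the endoplasmic reticulum, and a heavy chain such as H2-K1 or H2-D1 pairs with B2m to carry them to the surface.

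Values are TPM, a length-corrected share of the transcripts in each library. The data separated the list into a small expressed set and a larger set at or near 0. B2m, Ifitm3 and H2-K1 together held between 77.8% and 85.9% of the TPM of all 31 genes in each library. At the other end, 13 members stayed under 1 TPM in every library, and 2 of these, Isg15 and Mx2, were listed at 0 throughout. The gene annotation classes Mx2 as a polymorphic pseudogene and not as protein-coding. With PGE2 no member passed the test. The lowest p belonged to Plscr1, a phospholipid scramblase that interferon induces, which read 28.3, 21.7 and 18.8 TPM in the 3 DMSO libraries, in replicate order, against 12.4, 2.32 and 6.37 TPM in the 3 PGE2 libraries. Every PGE2 value of Plscr1 lay below every Vehicle value.

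The ISRE letters were looked for near the start sites of the members. RefSeq start-site windows (GRCm38.p6, the build called mm10; 250 bases before to 50 after the start) were found for 26 of the 31 members. The letters GAAA, then 2 bases of any kind, then GAAA again, read on both strands, occurred in at least 1 window of 13 of these 26 members (50%), against 3.99% of all genes with a window and 3.44% of all windows. Ifih1, Ddx58, Stat2, Isg15, Ifit1, Ifit3, Oas1a, Rsad2, Bst2, Ifitm3, Gbp2, Gbp3 and B2m held a match. The members were named for a response that is defined in part by this element, so the share describes the list and is not a test of it. The 5 stretches below are shown because they set the member with the highest level, B2m, beside 4 members that were low or listed at 0. Each gives the 170 bases before the start site, 5′ to 3′ on the gene's strand, with ISRE matches in capitals.
B2m: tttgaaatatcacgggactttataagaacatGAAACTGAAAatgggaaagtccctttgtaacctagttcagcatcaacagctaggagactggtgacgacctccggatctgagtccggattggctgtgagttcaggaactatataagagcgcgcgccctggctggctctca
Isg15: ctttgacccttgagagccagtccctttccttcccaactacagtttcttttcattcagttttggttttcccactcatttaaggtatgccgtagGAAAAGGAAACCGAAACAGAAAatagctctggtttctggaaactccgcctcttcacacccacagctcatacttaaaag
Ifit1: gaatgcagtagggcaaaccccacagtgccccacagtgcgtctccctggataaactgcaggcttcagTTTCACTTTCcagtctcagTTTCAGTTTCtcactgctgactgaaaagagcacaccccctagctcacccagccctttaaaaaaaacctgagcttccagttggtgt
Ifit3: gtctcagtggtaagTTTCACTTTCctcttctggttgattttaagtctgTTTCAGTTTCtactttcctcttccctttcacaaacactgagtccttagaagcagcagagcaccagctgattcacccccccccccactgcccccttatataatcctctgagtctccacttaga
Bst2: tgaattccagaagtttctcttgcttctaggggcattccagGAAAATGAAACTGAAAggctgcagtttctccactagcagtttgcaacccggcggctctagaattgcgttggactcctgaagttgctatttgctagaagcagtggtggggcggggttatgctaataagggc

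These stretches are chr2:122147517-122147686 on the plus strand for B2m, chr4:156200819-156200988 on the minus strand for Isg15, chr19:34640719-34640888 on the plus strand for Ifit1, chr19:34583359-34583528 on the plus strand for Ifit3 and chr8:71537473-71537642 on the minus strand for Bst2. In Isg15, 3 overlapping matches ran from base -78 to base -57, counted with the start site as 0. B2m had 1 match, from -139 to -130. Ifit1 and Ifit3 had 2 separate matches each, on the strand opposite to the gene. Bst2 had 2 overlapping matches, whose capitals also run into a match to the GAS letters at -136 to -128. Of the 7 members with a mean of 5 TPM or more, B2m and Ifitm3 held a match. By the filter on low values described below, a match was held by 5 of the 12 tested and 8 of the 14 untested members that have a window, and this difference was not tested. The GAS letters, TTCNNNGAA on both strands, occurred in windows of 8 of the 26 members, against 9.55% of all genes, and Plscr1 held 1 such match at -90 to -82. The cAMP response element letters TGACGTCA were in no member window and in 1.79% of all windows. A match says only that the letters are present, and the absence of a match says nothing about a factor's binding.

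**Figure D1:**
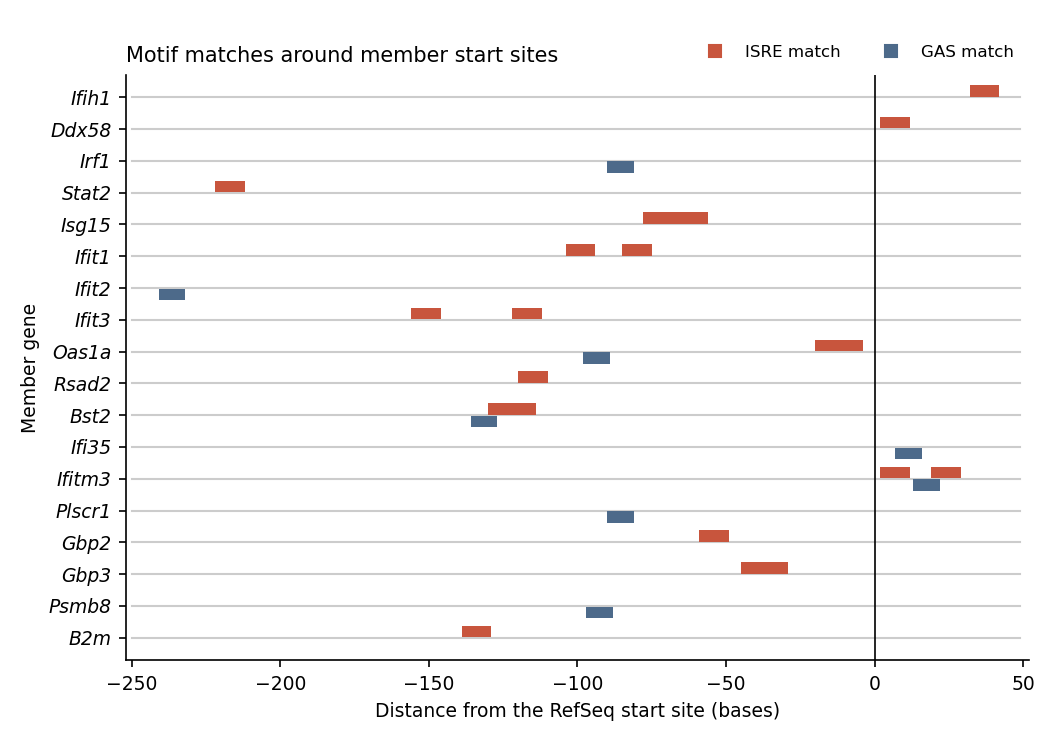
Positions of ISRE matches (red) and GAS matches (blue) in the start-site windows of the 18 members that hold either; the x axis is the distance in bases from the RefSeq start site, and each gray line is a window, 250 bases before to 50 after the start. Most of the 21 ISRE matches lie before the start site (17), and those of Ifih1, Ddx58 and Ifitm3 lie after it.

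The sensors and transcription factors that start the response were low. Ifih1 and Ddx58 encode the RNA sensors MDA5 and RIG-I. Ifih1 read 0.24, 1.22 and 5.71 TPM with DMSO, against 1.78, 0.42 and 0.31 TPM with PGE2, with its highest value in Vehicle 3. Ddx58 read 1.31, 1.08 and 0.30 TPM with DMSO, against 0.34, 0 and 5.94 TPM with PGE2, with its highest value in PGE2 3. Each gene thus reached 5 TPM in a single library, and its groups overlapped. Stat2 and Irf9, of the ISRE-binding complex, were also low: Stat2 did not exceed 0.36 TPM, and Irf9 reached 3.64 TPM in PGE2 2 and 1.28 TPM in PGE2 1 and stayed at or below 0.57 TPM elsewhere. Irf1, a transcription factor induced by interferon, was at or below 0.64 TPM. Irf7, which amplifies the type I interferon response, was above 0 only in Vehicle 3 (0.77 TPM). Isg15, a ubiquitin-like protein, was listed at 0 in all 6 libraries, and Usp18, the protease that removes it and that also restrains the receptor, was above 0 only in PGE2 3 (0.32 TPM). Depth is unknown for TPM, so a gene listed at 0 cannot be given an upper limit.

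**Figure D2:**
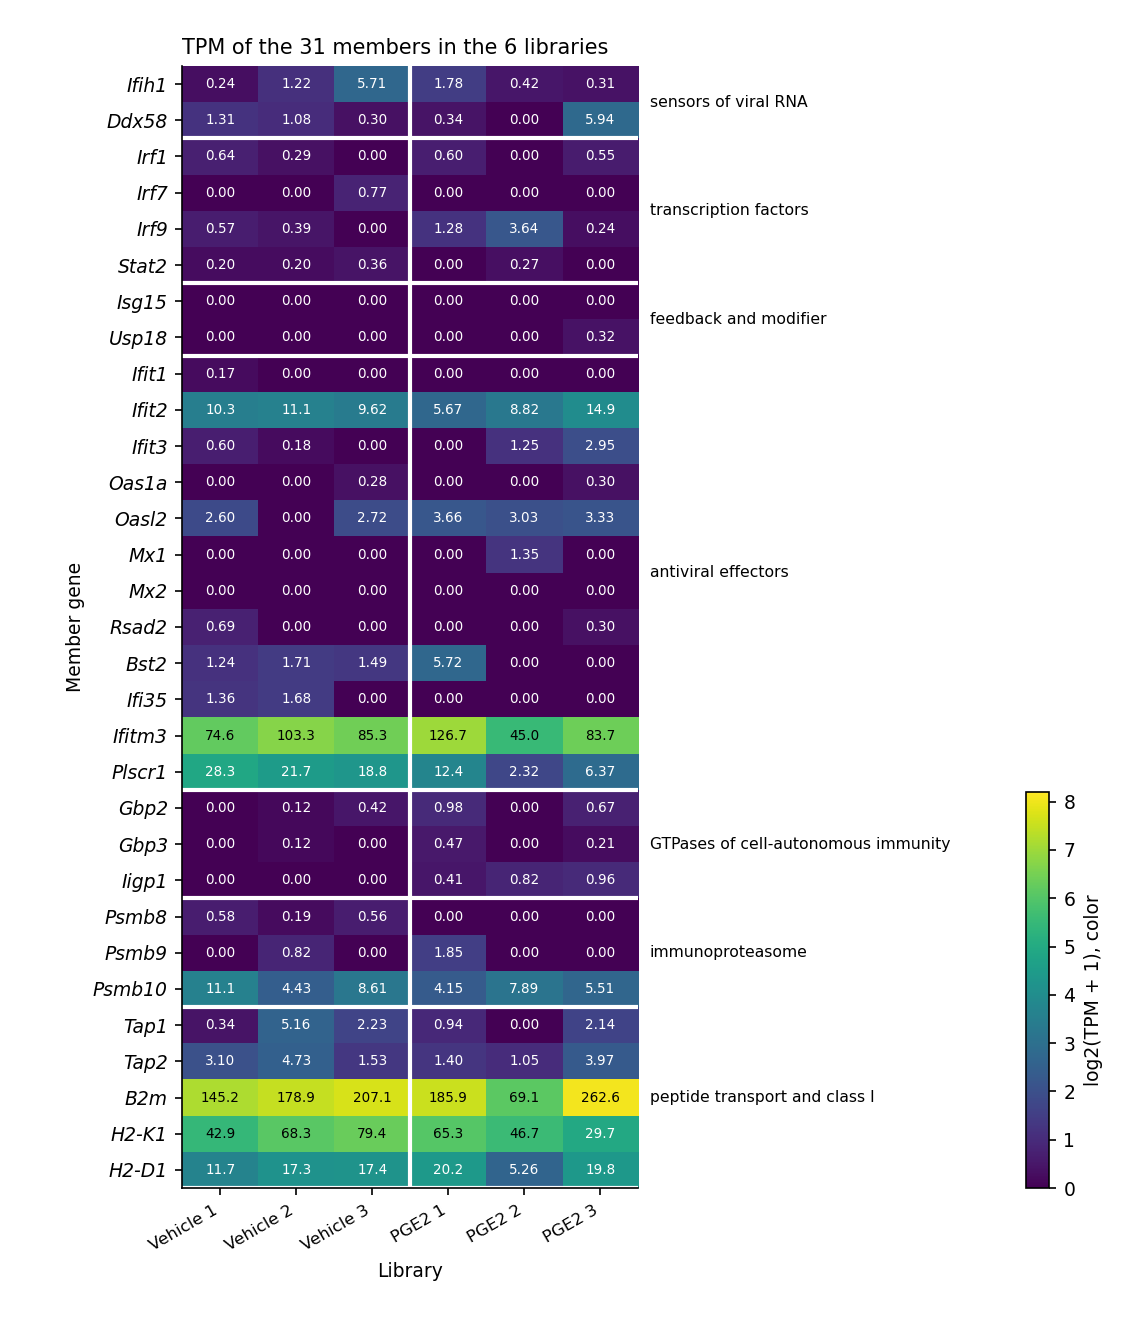
TPM of each of the 31 members (rows, grouped by role) in each library (columns); the number is the TPM and the color is log2(TPM + 1). Bright rows are B2m, Ifitm3 and H2-K1, followed by H2-D1, Plscr1, Ifit2 and Psmb10, and the remaining rows are at 5.94 TPM or below.

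Among the 12 antiviral effectors, 3 had a mean of 5 TPM or more. Ifitm3, a membrane protein that blocks virus entry, read 74.6, 103.3 and 85.3 TPM with DMSO, against 126.7, 45.0 and 83.7 TPM with PGE2. The PGE2 libraries held both its highest and its lowest value. Ifit2, an RNA-binding effector, read 10.3, 11.1 and 9.62 TPM with DMSO, against 5.67, 8.82 and 14.9 TPM with PGE2, again with the Vehicle values inside the range of the PGE2 values. Its relatives in the same chromosome 19 cluster were far lower: Ifit1 was above 0 in Vehicle 1 alone (0.17 TPM), and Ifit3 did not exceed 2.95 TPM. Ifit2 shared no stretch of 50 bases with another annotated gene, whereas 51.2% of the 50-base stretches of Ifit3 also occur in Ifit3b. The sum of Ifit3 and Ifit3b read 1.86, 0.18 and 5.35 TPM with DMSO, against 2.5, 3.22 and 3.23 TPM with PGE2, so the pair together did not exceed 5.35 TPM.

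Plscr1 (chromosome 9, 92249750 to 92272278, plus strand) was at 22.9 ± 4.87 TPM with DMSO, against 7.03 ± 5.07 TPM with PGE2 (mean ± SD of 3 libraries per group). On the log2(TPM + 1) scale its change from DMSO to PGE2 was -1.78 (95% confidence interval -2.99 to -0.56), a level 3.42-fold lower. Its p was 0.00869 before and 1.00 after Benjamini-Hochberg adjustment over the 12781 tested genes (limma), so it did not pass. The unadjusted p of Plscr1 ranged from 0.00166 to 0.0384 over the 15 alternative settings and left-out libraries, with a negative log2 change in each and a smallest adjusted p of 0.459. A pseudogene, Gm5530, holds 12.3% of its 50-base stretches and did not exceed 1.29 TPM. Summed with it, Plscr1 read 28.3, 23 and 18.8 TPM with DMSO, against 12.4, 2.32 and 7.10 TPM with PGE2, and the groups still did not overlap.

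Oasl2, which belongs to the oligoadenylate synthetase family, read 2.60, 0 and 2.72 TPM with DMSO, against 3.66, 3.03 and 3.33 TPM with PGE2. Every PGE2 value was higher, the nearest libraries being at 2.72 and 3.03 TPM, and the log2 change of 0.87 (95% confidence interval -0.57 to 2.30) had an unadjusted limma p of 0.209. Without Vehicle 2, the library at 0, the log2 change of Oasl2 was 0.24, and with a pseudocount of 0.1 it was 1.91. Once mitochondrial genes were left out and the rest rescaled, the groups overlapped. Bst2, the tetherin that holds budding virus at the membrane, read 1.24, 1.71 and 1.49 TPM with DMSO, against 5.72, 0 and 0 TPM with PGE2, so that PGE2 1 was above and the other two below the Vehicle range. The log2 change of Bst2 was -0.39 with all libraries, -2.02 with a pseudocount of 0.1, and 0.07 without PGE2 2 or without PGE2 3. Without PGE2 1, which leaves only PGE2 values of 0, it was -1.31 (limma, unadjusted p = 0.0374, adjusted p = 0.636). The share of all genes with an unadjusted p under 0.05 at that setting is not given. Ifi35, Mx1, Rsad2 and Oas1a did not reach 2 TPM: Ifi35 read 1.36, 1.68 and 0 TPM with DMSO and 0 in every PGE2 library, Mx1 was above 0 in PGE2 2 alone (1.35 TPM), and Rsad2 and Oas1a stayed at or below 0.69 TPM. Oas1a shares 57.6% of its 50-base stretches with other genes, Oas1g first among them, and the sum of Oas1a, Oas1b and Oas1g did not exceed 0.85 TPM. The GTPases Gbp2, Gbp3 and Iigp1, which attack the vacuoles of intracellular pathogens, stayed under 1 TPM. Of these, Iigp1 was 0 in every Vehicle library, against 0.41, 0.82 and 0.96 TPM with PGE2.

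The class I genes B2m and H2-K1 had the highest mean levels of the list apart from Ifitm3, which lay between them. B2m (chromosome 2, 122147686 to 122153083) read 145, 179 and 207 TPM with DMSO, against 186, 69.1 and 263 TPM with PGE2, which placed it in the top 5.31% of tested genes by mean level. H2-K1 (chromosome 17, 33996017 to 34000347) read 42.9, 68.3 and 79.4 TPM with DMSO, against 65.3, 46.7 and 29.7 TPM with PGE2. H2-D1 (chromosome 17, 35262730 to 35267499) read 11.7, 17.3 and 17.45 TPM with DMSO, against 20.2, 5.26 and 19.8 TPM with PGE2. In each of the 3 genes the groups overlapped. B2m and H2-D1 were lowest in PGE2 2, while H2-K1 was lowest in PGE2 3, the library with the highest B2m. The level of B2m was 2.09 to 2.66 times the sum of H2-K1 and H2-D1 in the Vehicle libraries, and 2.17, 1.33 and 5.31 times that sum in PGE2 1 to 3. H2-K1 and H2-D1 share 9.63% and 12.8% of their 50-base stretches with other genes, so the split between them is uncertain. The gene sharing most was H2-Q10 for H2-K1 (5.18%) and H2-Q1 for H2-D1 (5.87%). Summed with H2-Q4, H2-Q7 and H2-Q10 the heavy chains read 56.6, 88.2 and 97.7 TPM with DMSO, against 86.4, 55.6 and 52.3 TPM with PGE2, with overlap as before. H2-Q1 was not part of this sum.

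The log2 change was -0.22 for B2m (95% confidence interval -1.23 to 0.79), -0.44 for H2-K1 (-1.30 to 0.41) and -0.21 for H2-D1 (-1.40 to 0.98). The intervals hold changes of either sign. Without PGE2 2 the log2 change became 0.33 for B2m and 0.37 for H2-D1, whereas for H2-K1 it was -0.47. Among the peptide transporters, Tap1 read 0.34, 5.16 and 2.23 TPM with DMSO, against 0.94, 0 and 2.14 TPM with PGE2. Tap2 read 3.10, 4.73 and 1.53 TPM with DMSO, against 1.4, 1.05 and 3.97 TPM with PGE2. Both thus lay below B2m, H2-K1 and H2-D1 in every library, with overlap between the groups. They were nearest to H2-D1, which read 17.3 TPM in Vehicle 2.

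**Figure D3:**
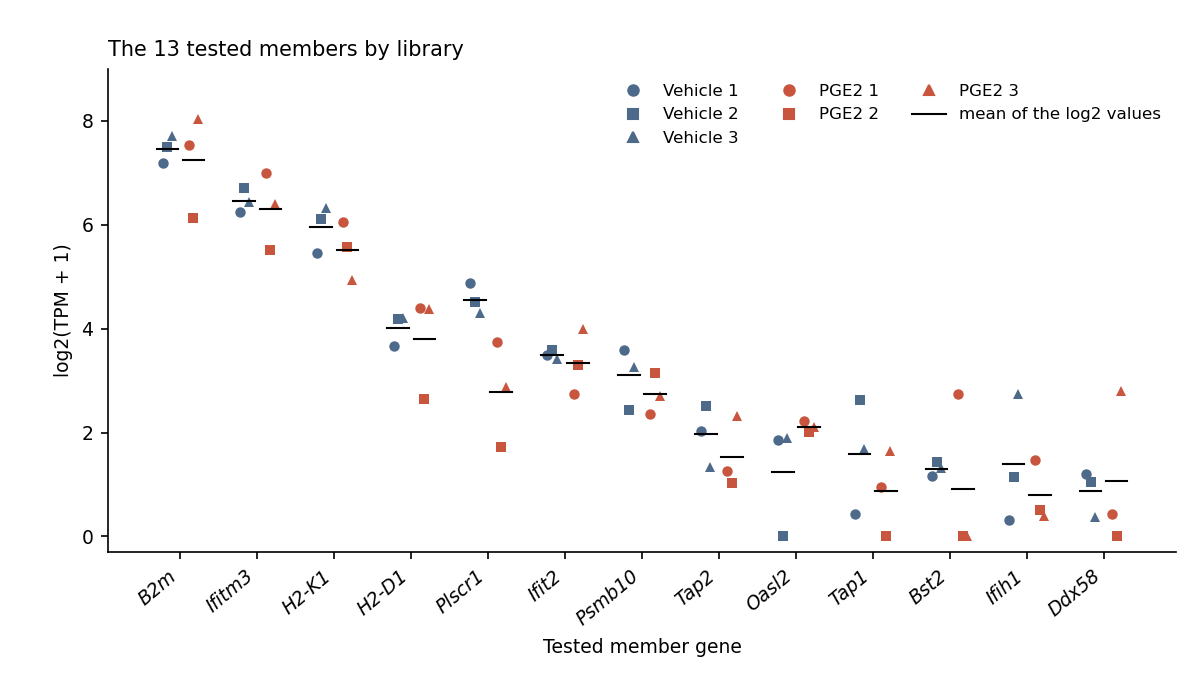
log2(TPM + 1) of the 13 members that passed the filter, ordered by mean TPM; blue symbols are the Vehicle and red symbols the PGE2 libraries, and black bars are the mean of the log2 values of each group. Plscr1 and Oasl2 are the members whose groups do not overlap, and PGE2 2 (red square) is the lowest value of B2m, Ifitm3, H2-D1 and Plscr1.

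The 3 catalytic subunits that interferon adds to the proteasome differed in level. Psmb10 read 11.1, 4.43 and 8.61 TPM with DMSO, against 4.15, 7.89 and 5.51 TPM with PGE2, with overlapping groups and a log2 change of -0.36 (95% confidence interval -1.52 to 0.80). Psmb8 was present at trace level in Vehicle (0.58, 0.19 and 0.56 TPM) and listed at 0 in PGE2, and Psmb9 was above 0 in Vehicle 2 (0.82 TPM) and PGE2 1 (1.85 TPM) only. For comparison, the constitutive subunits that they replace, Psmb5, Psmb6 and Psmb7, were looked up after the values of the members had been seen. Psmb5, which Psmb8 replaces, ranged from 23.4 to 87.5 TPM. Psmb6, the counterpart of Psmb9, ranged from 35.9 to 63.3 TPM. Psmb7, the counterpart of Psmb10, ranged from 90.1 to 151 TPM and was 11.7 to 30.2 times the level of Psmb10 in the 6 libraries. In these cultures the transcripts of the constitutive catalytic subunits exceeded those of the immunoproteasome in every library of both groups.

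**Figure D4:**
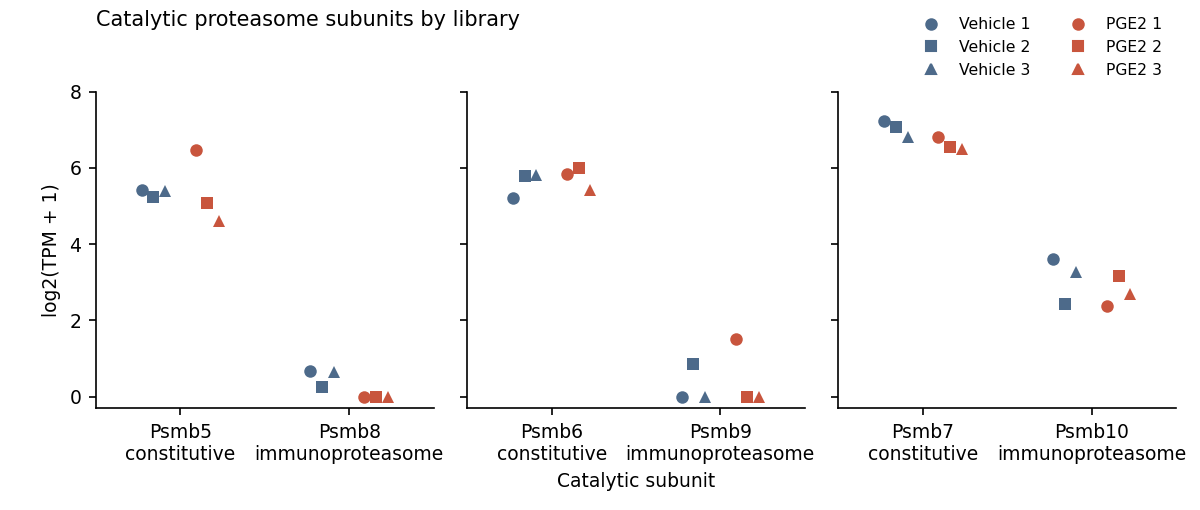
log2(TPM + 1) of each constitutive catalytic subunit beside the immunoproteasome subunit that replaces it, by library; blue is Vehicle, red is PGE2 and the symbol gives the replicate. The constitutive member of each pair is higher in all 6 libraries, and Psmb8 and Psmb9 sit at or near 0.

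Neighbouring members differed widely in level. Psmb8, Psmb9, Tap1, Tap2, H2-K1 and H2-D1 all lie in the MHC on chromosome 17, and their levels ran from under 1 TPM in every library for Psmb8 to 79.4 TPM for H2-K1 in Vehicle 3. Tap1 and Psmb9 are divergent neighbours whose RefSeq start sites, at 34187556 and 34187330, are 225 bases apart. Tap1 was highest in Vehicle 2 (5.16 TPM, with Psmb9 at 0.82 TPM), whereas Psmb9 was highest in PGE2 1 (1.85 TPM, with Tap1 at 0.94 TPM). The gene models of Tap1 and Psmb9 overlap in the annotation on opposite strands. The labels do not say that counting used strand, so reads in that overlap cannot be assigned with certainty.

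For the comparison of PGE2 with Vehicle, limma was applied to every gene that reached 1 TPM in 3 or more libraries, on log2(TPM + 1). Of the 31 members 13 passed this filter (41.9%), against 49.3% of the protein-coding genes in the table. None of the 13 passed at a Benjamini-Hochberg adjusted p under 0.05 (0% of the 12781 tested genes did), and 1, Plscr1, had an unadjusted p under 0.05 (3.63% of all tested genes, 2.06% lower and 1.57% higher with PGE2). With PGE2 the fitted value was lower for 11 tested members and higher for 2 (84.6% lower, against 56.1% of all tested genes), and the median log2 change was -0.36 against -0.07 over all tested genes. Without PGE2 2, 7 of 13 were lower and the median was -0.13. The groups did not overlap for Plscr1 and Oasl2 among the 13 (8.01% of all tested genes, 4.84% with PGE2 lower, as for Plscr1, and 3.18% with PGE2 higher, as for Oasl2). Of the 16 members that missed the filter but were above 0 in a library, Psmb8 and Iigp1 had groups that did not overlap (3.5% of all such genes), each at values under 1 TPM. The median half-width of the members' 95% confidence intervals was 1.22 on the log2 scale, before any adjustment. The adjusted test was stricter: at these 3 libraries a group, the change of -1.78 of Plscr1 did not pass it. In bulk RNA, fewer cells with a transcript and less of it in each cell cannot be told apart.

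**Figure D5:**
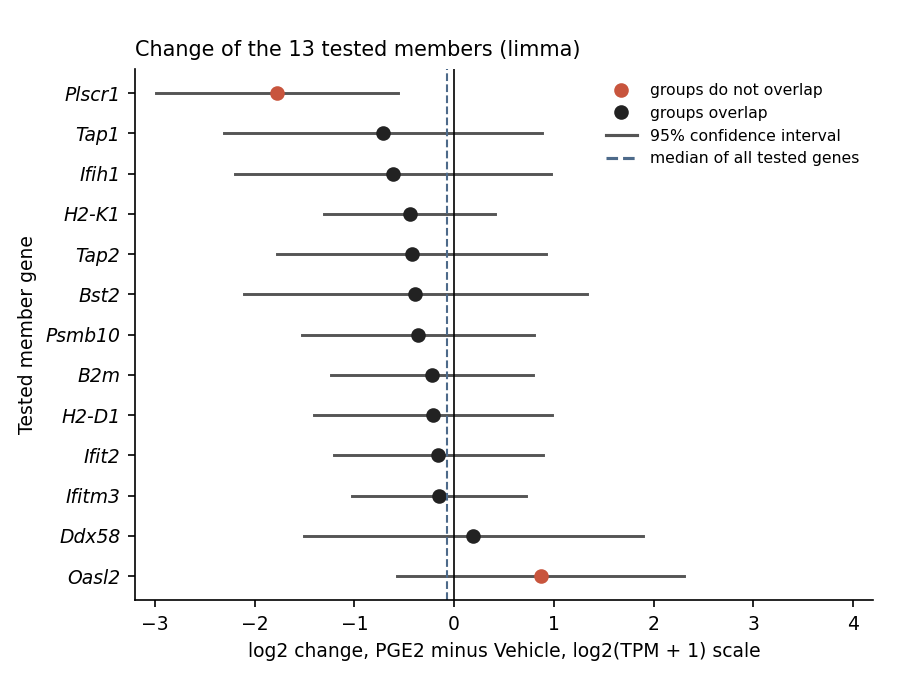
log2 change (PGE2 minus Vehicle) of the 13 tested members on the log2(TPM + 1) scale, with 95% confidence intervals from limma; red points mark members whose groups do not overlap, and the dashed line is the median of all tested genes (-0.07). The interval of Plscr1 (-2.99 to -0.56) is the only one of the 13 that does not include 0.

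PGE2 2 stood apart from the other libraries for this list. Its 31 members summed to 197 TPM, against 338 to 445 TPM in the other libraries. It held the lowest value of 7 of the 12 tested members with a single lowest library, and the highest of none, while over all tested genes it held the lowest value for 27.3% and the highest for 18.2%. In PGE2 2, B2m, Ifitm3 and H2-K1 held 81.7% of the member sum. Related lists described below went the other way and summed highest in PGE2 2. Further interferon-stimulated genes summed to 203 TPM there, against 101 to 195 TPM elsewhere. Other genes of class I processing summed to 1065 TPM, against 674 to 963 TPM elsewhere. Members listed at 0 numbered 16 of 31 in PGE2 2 and 10 to 13 elsewhere, and genes listed above 0 numbered 16558 in PGE2 2 and 15400 to 19677 elsewhere. Between replicates, the PGE2 group was more variable than Vehicle for 9 of the 13 tested members and for 69.5% of all tested genes. Over the tested members the median SD of log2(TPM + 1) was 0.74 among the PGE2 libraries and 0.44 among the Vehicle libraries, close to the 0.66 and 0.43 over all tested genes.

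The genes that surround the members in the pathway were examined from lists of other genes. No interferon gene was expressed at a level that could be tested: 14 of the 22 interferon entries, Ifnb1 and Ifng among them, were listed at 0 in all libraries, and the highest value was 4.00 TPM, of Ifne in PGE2 2. The receptors were present. Ifnar1 read 7.07, 9.87 and 11.8 TPM with DMSO, against 17.3, 14.4 and 11.4 TPM with PGE2, and Ifnar2 was at 24.4 ± 7.83 TPM with DMSO and 18.7 ± 7.62 TPM with PGE2 (mean ± SD of 3 libraries per group). Ifngr1 was at 8.72 ± 1.26 and 11.9 ± 9.32 TPM and Ifngr2 at 13.3 ± 7.65 and 5.94 ± 3.21 TPM (mean ± SD of 3 libraries per group), with overlap in all of these receptors. Below the receptors, Jak1 was at 30.8 ± 3.85 and 28.7 ± 15.8 TPM, and Tyk2 did not exceed 1.42 TPM. Both receptor pairs and Jak1 had higher mean TPM than Stat2 and Irf9 in each group.

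None of the 8 tested receptor, kinase and STAT genes passed limma's test (5 higher, 3 lower, median log2 change 0.10), nor did any of the 14 tested entries for nucleic acid sensing and IRF activation (6 higher, 8 lower, median -0.03). Irf3, the factor that sensors activate, read 2.32, 5.83 and 8.08 TPM with DMSO, against 1.56, 11.2 and 5.29 TPM with PGE2. Mavs, the adaptor of both RNA sensors, read 3.17, 7.6 and 3.80 TPM with DMSO, against 15.97, 1.45 and 8.10 TPM with PGE2. The 1 tested entry of these lists with an unadjusted limma p under 0.05 (0.00913) was 1 of 2 identifiers that the table names Trex1, a DNA exonuclease. This identifier (ENSMUSG00000105383) was not found in the gene annotation used here, so its position and its overlap with the other identifier were not examined. It was 0 in every Vehicle library, against 2.11, 2.15 and 1.99 TPM with PGE2, and so passed the filter only through the PGE2 libraries. The other identifier (ENSMUSG00000049734) read 0.44, 1.80 and 0.53 TPM with DMSO, against 6.71, 0 and 0 TPM with PGE2.

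Of 52 entries for further interferon-stimulated genes 20 were tested, of which 15 were fitted higher with PGE2 and 5 lower (median log2 change 0.17), and 0 passed limma's test either adjusted or at an unadjusted p under 0.05. Of the other genes of class I processing 11 of 18 were tested, 9 higher and 2 lower (median 0.24), with none at an unadjusted p under 0.05. Over all tested genes 56.1% were fitted lower and the median was -0.07, and the difference between these lists and the members was not tested. Calr, the chaperone of the peptide-loading complex, was at 116 ± 26.8 TPM with DMSO, against 157 ± 67.6 TPM with PGE2 (mean ± SD of 3 libraries per group). Tapbp, or tapasin, which bridges the transporter and the heavy chain, did not exceed 1.28 TPM, and Nlrc5, the transactivator of class I genes, was above 0 in Vehicle 3 alone (1.56 TPM).

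Because leukocytes and endothelial cells express these genes strongly, markers of other cell types were read in the same libraries. Of 13 leukocyte markers 3 were tested, and their summed level was 3.36 to 13.5 TPM in Vehicle and 8.25 to 14.97 TPM in PGE2. Laptm5 was the highest of them, at 6.45 TPM in PGE2 1 and 0 in PGE2 2. Csf1r, which missed the filter, read 2.85 and 4.07 TPM in PGE2 2 and 3 and at most 0.81 TPM elsewhere. Of the 3 tested, Ptprc was fitted higher, and Laptm5 and Cd68 were fitted lower (median log2 change -0.38). Cd52 and Coro1a were listed at 0 in every library, and so was the class II invariant chain Cd74. Class II genes as a whole summed to at most 3.74 TPM. The 9 endothelial markers summed to 4.16 to 7.81 TPM in Vehicle and 6.90 to 19.9 TPM in PGE2, of which Emcn gave 15.3 TPM in PGE2 3, and Cldn5 was listed at 0 throughout. Eng read 1.57, 1.10 and 0.96 TPM with DMSO, against 2.55, 6.44 and 2.54 TPM with PGE2. Its groups did not overlap, with PGE2 higher, as in 3.18% of all tested genes, and it did not pass limma's test. Of the 3 endothelial markers tested, Eng was fitted higher, and Tek and Pecam1 were fitted lower (median log2 change -0.29). The 7 fibro-adipogenic markers summed to 22.3 to 35.9 TPM in Vehicle and 39.4 to 50.1 TPM in PGE2, with Col3a1 the highest. Col3a1 ranged from 15.3 to 28.1 TPM in Vehicle and from 24.9 to 36.45 TPM in PGE2, with overlap. Col1a1 gave 14.4 TPM in PGE2 3 and at most 0.44 TPM elsewhere, and Pdgfra, Dcn and Lum did not exceed 1.45 TPM. Of the 3 tested, Col3a1 was fitted higher, and Ly6a and Gsn were fitted lower (median log2 change -0.07). Of the genes used for negative sorting, Ptprc (CD45) did not exceed 4.81 TPM, Pecam1 (CD31) 1.55 TPM and Itgam (CD11b) 2.44 TPM. Ly6a (Sca1) read 2.22, 3.38 and 7.92 TPM with DMSO, against 0, 13.6 and 0 TPM with PGE2. The 9 muscle stem cell markers summed to 708 to 899 TPM in Vehicle and 627 to 886 TPM in PGE2. The highest were Sdc4 (184 to 363 TPM), Myf5 (120 to 303 TPM) and Myod1 (89.5 to 146 TPM). Itga7, the α7-integrin gene used for sorting, ranged from 2.69 to 13.2 TPM, and Cdh15 and Chodl did not exceed 5.15 TPM. All 9 were tested, with 3 fitted higher and 6 lower (median log2 change -0.13). In PGE2 2, the library with the lowest sum of members, the muscle stem cell sum was the lowest (627 TPM, against 641 to 899 TPM elsewhere). It was close to the 641 TPM of PGE2 1, where the members summed to 440 TPM. The fibro-adipogenic sum was the highest in PGE2 2 (50.1 TPM), of which Ly6a gave 13.6 TPM. Col3a1 was higher in PGE2 1 (36.45 TPM) than in PGE2 2 (30.4 TPM). The leukocyte and endothelial sums of PGE2 2 (12.2 and 13.97 TPM) lay within the range of the other libraries. The part of these cell types in the values of the members was not tested.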

How the data were processed

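RNA was sequenced from 6 libraries, 3 per group. The table the authors deposited holds TPM with 1 column per library; the unit was inferred from the values, which sum to between 992356.8 and 995644.6 per library, since no header names it. STAR, RSEM and mm10 are named in the submitters' processing notes, with no version, setting or annotation named. Per the labels' protocols, a Qiagen micro kit and NuGEN cDNA amplification preceded library construction. TPM keeps no read depth, so precision rests on the spread between libraries. PGE2 was compared with Vehicle by limma 3.58.1 in R 4.3.3 on log2(TPM + 1), with a mean trend in the variance prior, a filter of 1 TPM in at least 3 libraries, two-sided tests and Benjamini-Hochberg adjustment over 12781 genes, at a threshold of 0.05. The fit was tested on simulated data. The members and lists were chosen with earlier results of these data known. Members with a mean of 5 TPM, an unadjusted p under 0.05 or groups without overlap are given in full, pathway genes by a fixed set and up to 3 per list with an unadjusted p under 0.05, and marker genes by level or sort use. Cd52, Coro1a, Cd74, Ifne, Cldn5, Pdgfra, Dcn, Lum, Cdh15 and Chodl were singled out after their values were seen. Positions and shared 50-base stretches come from GENCODE M21 (42782 of 43283 identifiers found), start-site windows from RefSeq. Of 171 list genes 169 were found. Tables and figures were made in Python 3.11.15. Alternatives covered the pseudocount, filter, scaling, variance prior, library weights, replicate number and left-out libraries. A pathway gene of the lists is not reported here.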

Additional observations from a re-analysis of the deposited data

How the results depend on the processing

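No member passed the limma threshold under any of the 15 alternatives, and 6 of the 13 tested members (Plscr1, Oasl2, H2-K1, Psmb10, Tap1 and Tap2) kept the sign of their log2 change in every alternative that tested them. The count of members with a higher fitted value was 2 of 13, and it was 1 with a pseudocount of 0.1, 12 of 31 with no filter and 0 of 7 with a filter of 5 TPM; leaving out 1 library gave 2 to 6, the 6 without PGE2 2. Members whose groups do not overlap numbered 2 (8.01% of all tested genes had such groups). They numbered 4 with no filter, 1 with a filter of 5 TPM and 1 without mitochondrial genes. With 1 library left out they numbered 2 to 4, with 4 without Vehicle 1 and 4 without PGE2 3. Non-overlap is easier to reach with fewer libraries. The share over all genes is not given for the alternatives, so these counts are no result about the members. Over all genes 0 passed, against 1 with a robust variance prior and 0 to 2 with 1 library left out (1 without PGE2 1, PGE2 2 or Vehicle 1, and 2 without PGE2 3). The median log2 change of the members was -0.13 with no filter, -0.22 with a filter of 5 TPM and -0.50 to -0.13 with 1 library left out. With no filter Psmb8 joined Plscr1 at an unadjusted limma p under 0.05 (0.0168). Psmb8 was under 1 TPM in every library and 0 in every PGE2 library, so this p rests on values near 0. After adjustment 0 of the 43283 genes passed at this setting. The share of them with an unadjusted p under 0.05 is not given. Ddx58 turned to -0.44 with a pseudocount of 0.1. With 1 library left out, the log2 change ran from -0.67 to 0.73 for Ddx58, -0.62 to 0.33 for B2m, -0.51 to 0.37 for H2-D1, -0.50 to 0.24 for Ifitm3, -0.48 to 0.15 for Ifit2, -1.31 to 0.0683 for Bst2 and -1.16 to 0.0597 for Ifih1. The causes were not tested. The labels do not say whether same-numbered libraries share an animal, sort or culture. The correlation of their deviations from the group means was -0.06, -0.04 and 0.07, and not every library correlated best with its own number. Deviations within a group of 3 sum to 0, so these values do not settle whether the libraries are paired. With the replicate number as a block 0 members and 0 genes passed, 2 members were higher, the median was -0.36 and 2 members did not overlap.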
